A study of Mus musculus with 4 samples.

Results

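The genes described here are 35 genes of the cell division cycle, taken by symbol from a list of proliferation genes. The deposited count table held 16218 genes, and the list was drawn up with earlier results of these data known. All 35 were listed and all 35 passed the filter on low counts. They were divided by textbook role into 13 S-phase genes, 19 mitotic genes and 3 genes whose RNA spans S phase to mitosis. The RNA came from thyroids of NOD.H-2h4 mice, a strain that develops autoimmune thyroiditis, and was sequenced after poly(A) selection. Of the 4 libraries, 2 came from mice given an isotype control IgG and 2 from mice given a monoclonal antibody against PD-L1, which restrains T cells by binding PD-1 on them. Injections were given 3 times a week for 2 weeks in both groups. Neither mouse age nor sex is given in the labels, and the genotype field names the treatment, with no allele for either group. The batch field holds a different clone string in each library, so batch cannot be told apart from the single library. Whole thyroid was sequenced, so fewer cells of a type and less RNA per cell cannot be told apart.

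Dividing cells make this RNA in waves. Before and during S phase, cyclin E opens the way to replication, CDC6 loads the MCM helicase on origins, and PCNA, ribonucleotide reductase and thymidylate synthase serve DNA synthesis. Later, cyclin B with CDK1, the Polo and Aurora kinases, the spindle checkpoint and the anaphase-promoting complex carry the cell through mitosis. S-phase genes are classically switched on by E2F factors, and mitotic genes by B-MYB and FOXM1 with the MuvB complex, which binds a promoter element called CHR. Most mature thyrocytes divide rarely, while lymphocytes in an immune response and the basal layer of squamous epithelium are known for frequent division.

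Library totals ranged from 75591923 to 79663374.5 counts, and single member genes had between 142 and 5675 counts in a library. Thyroglobulin (Tg) took 14.6% to 16.9% of counts in 3 libraries and 4.34% in anti-PD-L1 replicate 1. That library also stood apart in its sex-linked genes, given in CPM (the share of a library's counts on a common scale, normalized by TMM). It had 1.40 CPM of Xist against at least 67.7 CPM in the others, and 62.6 CPM of the Y-linked Ddx3y against at most 0.79 CPM. By these genes that library looked male and the others female, so sex was mixed within the anti-PD-L1 group and not balanced against IgG. Marker genes of thyroid follicular cells, which make thyroid hormone, summed to between 46048 and 167048 CPM, which was the largest sum of any marker list in each library. Markers of neighbouring tissue and of immune cells were present too, and their sums are given after the results.

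S-phase and mitotic genes had different patterns over the 4 libraries. Of the 13 S-phase genes, 12 were higher in each anti-PD-L1 library than in either IgG library, the exception being Rrm1, against 16.5% of all genes tested. Of the 19 mitotic genes, 0 were higher in this sense and 0 were lower in each anti-PD-L1 library, against 13.1% below among all genes. The median log2 fold change, anti-PD-L1 minus IgG, was 0.42 for the S-phase genes and -0.26 for the mitotic genes, a difference of -0.68, while the median of all genes was 0.00021. The difference between the classes is given as a description, with no test. It was -0.10 without IgG replicate 1, and the S-phase median was 0.25 without anti-PD-L1 replicate 2. No difference for a single member passed the test. The quasi-likelihood test of edgeR, with p-values adjusted by Benjamini-Hochberg over 16217 genes and a threshold of 0.05, called 0 members, and it also called 0 of all genes (0% in either direction). At an unadjusted p under 0.05 it had 2 members, Pcna and Mcm4, both higher, against 4.96% of all genes higher and 1.1% lower. DESeq2 called 0 members, against 2.93% of all genes higher and 0.327% lower, and limma voom called 0 members and 0 of all genes.

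**Figure D1:**
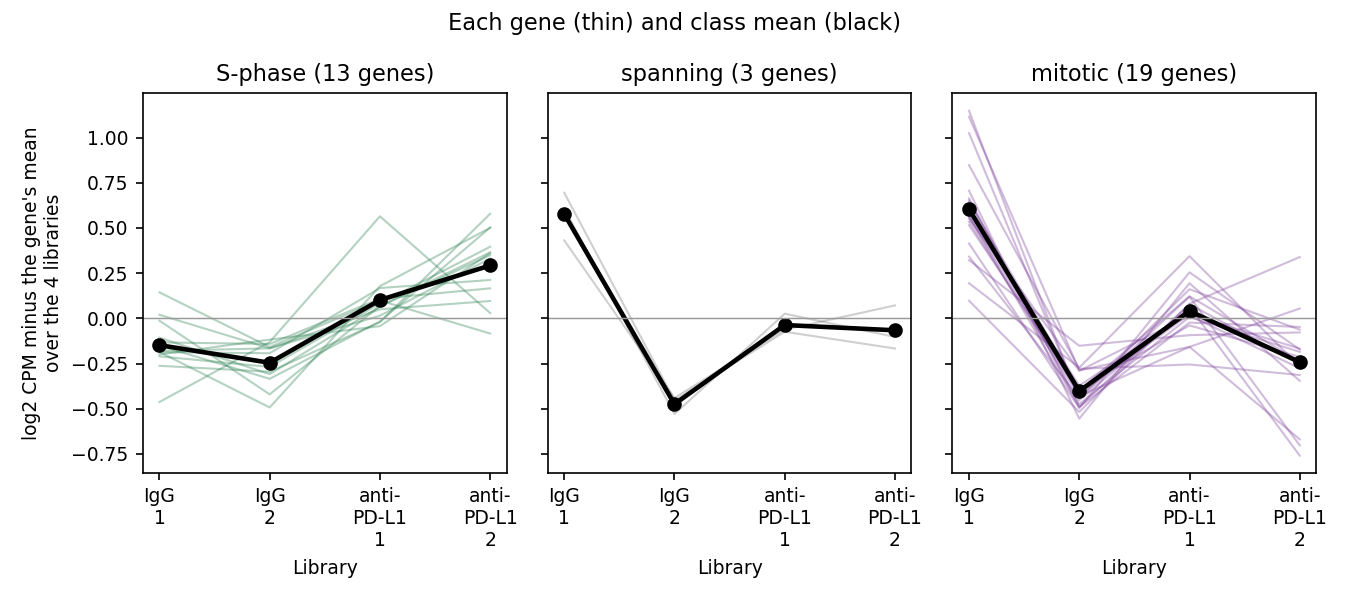
The 4 libraries are on the horizontal axis and log2 CPM minus each gene's mean over the libraries on the vertical axis, with 1 thin line per gene and the class mean in black. S-phase genes lie higher in the anti-PD-L1 libraries, while mitotic and spanning genes lie highest in IgG replicate 1 and the mean of each is lowest in IgG replicate 2.

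The mitotic pattern turned on the IgG libraries. IgG replicate 1 had the highest of the 4 values in 17 of 19 mitotic genes and in all 3 spanning genes, against 20.4% of all genes. IgG replicate 2 had the lowest in 15 and 3, against 2810 of all 16217 genes tested. The ratio of IgG replicate 1 to IgG replicate 2 had a median of 1.97 over the mitotic genes, with a range of 1.38 to 3.03. Without IgG replicate 1, 13 of 19 mitotic genes lay higher in each anti-PD-L1 library, against 24.8% of all genes, and without IgG replicate 2, 17 of 19 lay lower, against 26.7%. Their median log2 fold change was 0.33 in the former case and -0.67 in the latter. Over the S-phase genes the ratio of IgG replicate 1 to IgG replicate 2 had a median of 1.04 and a range of 0.794 to 1.33. Between the anti-PD-L1 libraries, the ratio of replicate 2 to replicate 1 had a median of 1.23 over the S-phase genes and 0.827 over the mitotic genes. Anti-PD-L1 replicate 2 had the highest value in 11 of 13 S-phase genes, against 31.5% of all genes.

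As sums, the 13 S-phase genes had 258 and 241 CPM under IgG and 295 and 347 CPM under anti-PD-L1. The anti-PD-L1 libraries were the higher ones, with no overlap. The 19 mitotic genes had 317 and 148 CPM under IgG and 198 and 160 CPM under anti-PD-L1. Both anti-PD-L1 libraries lay between the IgG libraries. The mitotic sum divided by the S-phase sum was 1.23 and 0.615 under IgG and 0.671 and 0.462 under anti-PD-L1. The quotient was highest in IgG replicate 1. The classes differ in number and length of genes, so it compares libraries and does not tell which class had more RNA.

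The promoters of both classes were searched for 3 short motifs, which the choice of genes did not use. RefSeq promoter windows on GRCm38.p6, from 250 bases before to 50 bases after the start, were matched for 29 of 35 members. The windows not matched were those of Ccne2, Mcm4, Ccna2, Aurkb, Kif20a and Tpx2. The letters TTTNNCGC, a form of the E2F site, occurred on either strand in 6 of 11 S-phase genes (54.5%) and in 1 of 16 mitotic genes (6.25%), which was Cdk1. The letters TTTGAA, the core of the CHR, occurred in 1 of 11 S-phase genes, Mcm2, and in 11 of 16 mitotic genes (68.8%). Among the 12396 genes tested that had a window, counted per gene like the members, the shares were 8.79% and 15.1%. CCAAT boxes, bound by NF-Y, occurred in 8 of 11 S-phase and 14 of 16 mitotic genes, against 41.9% of those tested genes. Matches may overlap one another, and a match is a description of the letters, not a bound site.

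The 150 bases before the start are shown for 2 S-phase and 2 mitotic genes, with matches to these motifs on either strand in capitals, as examples of the E2F-type and CHR-type letters. They lie at chr8:75109359-75109508 (plus strand) for Mcm5, chr1:128359706-128359855 (minus strand) for Mcm6, chr4:118437344-118437493 (minus strand) for Cdc20 and chr19:37376232-37376381 (plus strand) for Kif11. TTTGGCGC, GCGCCAAA and GCGCGAAA are the E2F-type letters, with the first and last of these overlapping at 1 place in Mcm6. The first capital C of Mcm5 belongs to a further E2F-type match that begins before the letters shown. TTTGAA and TTCAAA are the CHR-type letters, and CCAAT and ATTGG the CCAAT box.
Mcm5: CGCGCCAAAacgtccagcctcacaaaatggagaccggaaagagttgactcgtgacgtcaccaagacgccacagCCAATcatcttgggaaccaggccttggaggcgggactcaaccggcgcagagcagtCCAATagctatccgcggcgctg
Mcm6: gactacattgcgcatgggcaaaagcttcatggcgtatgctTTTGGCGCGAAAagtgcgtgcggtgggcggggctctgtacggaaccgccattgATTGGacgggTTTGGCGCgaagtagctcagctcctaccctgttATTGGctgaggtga
Cdc20: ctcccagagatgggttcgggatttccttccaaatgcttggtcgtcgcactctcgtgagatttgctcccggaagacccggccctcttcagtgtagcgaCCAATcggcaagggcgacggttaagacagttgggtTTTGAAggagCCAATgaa
Kif11: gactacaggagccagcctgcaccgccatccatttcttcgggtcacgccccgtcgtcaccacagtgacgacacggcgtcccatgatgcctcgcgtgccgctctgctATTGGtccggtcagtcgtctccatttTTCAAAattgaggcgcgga

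The 6 subunits of the MCM helicase, which unwinds DNA at the replication fork, had log2 fold changes between 0.33 and 0.59, and all 6 were higher in each anti-PD-L1 library than in either IgG library, beside 16.5% of all genes. Mcm6, whose promoter is shown above with E2F-type letters, lies on chromosome 1 from 128331590 to 128359664 of GRCm38. It had 26.0 and 25.4 CPM under IgG and 30.8 and 46.6 CPM under anti-PD-L1, a log2 fold change of 0.59 ± 0.24 (± SE throughout, with n = 2 in each group; adjusted p = 0.911 by edgeR). Anti-PD-L1 replicate 2 stood well above the other libraries. Mcm4 had 19.1 and 18.3 CPM against 23.4 and 29.0 CPM (0.49 ± 0.18, adjusted p = 0.809 by edgeR), with IgG libraries close to each other. Mcm5, also shown above, had 16.2 and 14.2 CPM against 17.7 and 25.4 CPM, for a log2 fold change of 0.51 ± 0.24.

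Mcm3 had 21.5 and 16.2 CPM under IgG and 22.7 and 27.9 CPM under anti-PD-L1, so that IgG replicate 1 and anti-PD-L1 replicate 1 differed little. Mcm2 had 30.2 and 31.9 CPM against 33.6 and 44.5 CPM, and Mcm7 24.1 and 24.3 CPM against 27.5 and 34.3 CPM. In each of the 6, anti-PD-L1 replicate 2 was highest, and without it the 6 log2 fold changes ran from 0.10 for Mcm2 to 0.31 for Mcm4. Mcm7 exons overlap those of Cops6 and Ap4m1 on the opposite strand, and the strand setting of the counting is not given in the sources used here, so its split of reads is uncertain.

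Cdc6, which loads the MCM ring on origins, had 3.15 and 2.55 CPM against 4.06 and 5.07 CPM. Its log2 fold change of 0.68 ± 0.26 was the highest of the 35 members, with an edgeR adjusted p of 0.845, and the groups did not overlap. Ccne1 and Ccne2 encode cyclin E, the partner of CDK2 at the start of S phase. Ccne1 had 2.26 and 2.85 CPM against 4.61 and 3.18 CPM (0.61 ± 0.30), and here anti-PD-L1 replicate 1 was the highest library. Ccne2 had 1.88 and 1.86 CPM against 2.22 and 2.31 CPM, with a log2 fold change of 0.27 ± 0.24, and its exons overlap those of Ints8 on the opposite strand.

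Pcna, the sliding clamp of the replicative polymerases on chromosome 2 from 132249162 to 132253314, had the smallest p of the 35 members. It had 53.1 and 52.9 CPM under IgG and 67.9 and 70.0 CPM under anti-PD-L1, a log2 fold change of 0.38 ± 0.14 with an unadjusted p of 0.0457 and an edgeR adjusted p of 0.79. Replicates were close in both groups, and the log2 fold change was 0.35 to 0.40 whichever library was left out. Processed pseudogenes named Pcna-ps1 and Pcna-ps2 are annotated, so some reads could have been shared with them. Rrm2, the regulated subunit of ribonucleotide reductase, had 9.83 and 8.55 CPM against 11.1 and 13.5 CPM (0.42 ± 0.20). Rrm1, the large subunit of the same enzyme, had 41.2 and 33.4 CPM against 40.0 and 35.2 CPM, for a log2 fold change of 0.0096 ± 0.18. Its groups overlapped, unlike those of Rrm2. Tyms, thymidylate synthase, had 9.15 and 8.05 CPM against 9.35 and 9.65 CPM, for a log2 fold change of 0.14 ± 0.19, and its groups overlapped when libraries were scaled by total count alone.

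**Figure D2:**
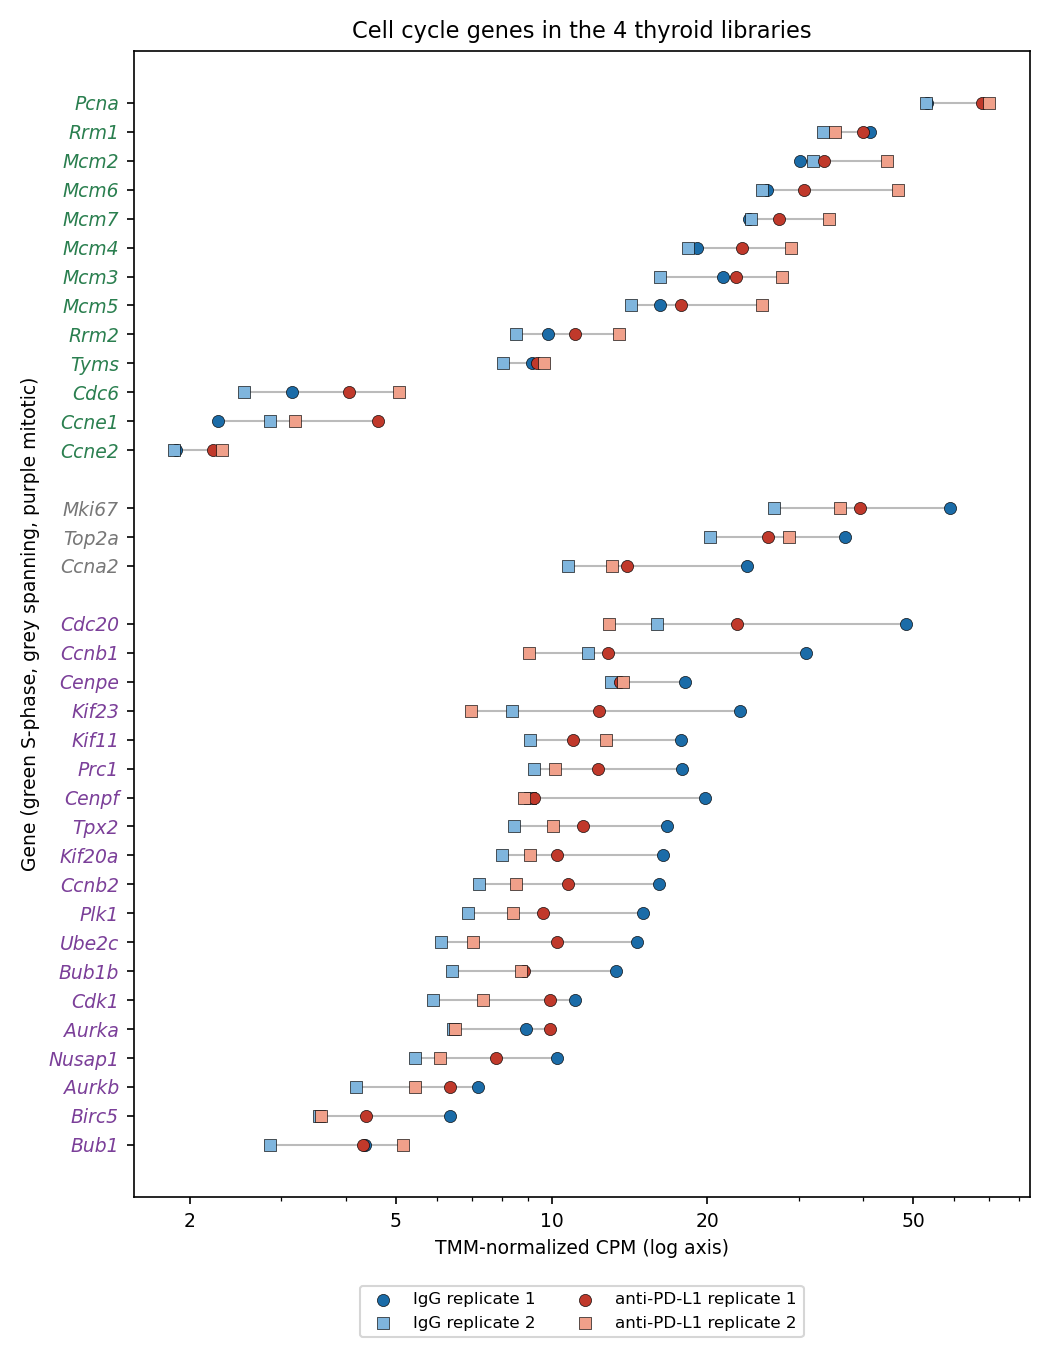
Each row is 1 gene and each point 1 library, with TMM-normalized CPM on a log axis and genes ordered by mean within S-phase (green), spanning (grey) and mitotic (purple) classes. In 17 of 19 mitotic genes the dark blue point of IgG replicate 1 is the rightmost, and in 11 of 13 S-phase genes the light red square of anti-PD-L1 replicate 2 is.

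The spanning genes are the common histological and cytometric markers of proliferation. Mki67, which encodes the Ki-67 antigen on chromosome 7 from 135689784 to 135716361, had 59.0 and 26.9 CPM under IgG and 39.5 and 36.1 CPM under anti-PD-L1. Top2a, topoisomerase II alpha, had 36.9 and 20.2 CPM against 26.2 and 28.8 CPM. For both, the IgG libraries lay on either side of the anti-PD-L1 libraries, with log2 fold changes of -0.18 ± 0.40 and -0.05 ± 0.33. Ccna2, cyclin A2, had 23.8 and 10.7 CPM against 14.0 and 13.1 CPM (-0.35 ± 0.41), in the same arrangement, and its exons overlap those of Exosc9.

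Among the 7 mitotic kinases, cyclins and their partners, the lowest log2 fold change was that of Ccnb1, cyclin B1, on chromosome 13 from 100778650 to 100786570. It had 31.1 and 11.8 CPM under IgG and 12.9 and 9.02 CPM under anti-PD-L1, a log2 fold change of -0.97 ± 0.52 (edgeR, unadjusted p = 0.132). IgG replicate 1 stood apart from the other 3 libraries, and without it the log2 fold change was -0.12. Pseudogenes are annotated for it and for Ccnb2 and Tyms. Ccnb2 had 16.1 and 7.25 CPM against 10.7 and 8.53 CPM, and Cdk1, the kinase that B-type cyclins activate, 11.1 and 5.90 CPM against 9.92 and 7.38 CPM (0.03 ± 0.38). In both genes the anti-PD-L1 libraries lay between the IgG libraries. Plk1, Polo-like kinase 1, gave the same arrangement with 15.0 and 6.88 CPM against 9.61 and 8.40 CPM.

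Aurka, the spindle pole kinase, was 1 of the 2 mitotic genes that were not highest in IgG replicate 1, with 8.93 and 6.46 CPM against 9.91 and 6.49 CPM, for a log2 fold change of 0.09 ± 0.31. Aurkb and Birc5 encode the kinase and the survivin subunit of the chromosomal passenger complex, which corrects spindle attachments. Aurkb had 7.20 and 4.19 CPM against 6.36 and 5.44 CPM, and Birc5 had 6.35 and 3.55 CPM against 4.38 and 3.58 CPM. Both had IgG replicate 1 highest and IgG replicate 2 lowest.

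Cdc20, the activator of the anaphase-promoting complex, whose promoter is shown above with the CHR letters, varied most of all 35 members, with 3.75 times between its highest and lowest library. It had 48.5 and 15.98 CPM under IgG and 22.9 and 12.9 CPM under anti-PD-L1, a log2 fold change of -0.85 ± 0.62, which was 0.14 without IgG replicate 1. Its exons overlap those of Elovl1 on the opposite strand. Ube2c, the ubiquitin-conjugating enzyme of the same complex, had 14.6 and 6.11 CPM against 10.3 and 7.06 CPM. Its exons overlap those of Tnnc2, a skeletal muscle troponin gene on the opposite strand that had 1197 to 4755 CPM, so its own level is uncertain without strand. Of the spindle checkpoint kinases, Bub1 had 4.36 and 2.85 CPM against 4.31 and 5.16 CPM (0.39 ± 0.30), and was the other mitotic gene not highest in IgG replicate 1. Bub1b, which encodes BUBR1, had 13.3 and 6.41 CPM against 8.86 and 8.71 CPM, with both anti-PD-L1 libraries between the IgG libraries.

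All 8 genes of the kinetochore, spindle motors and midzone were highest in IgG replicate 1, and their log2 fold changes ran from -0.70 to -0.18. Kif23, the motor of the central spindle, had 23.2 and 8.38 CPM against 12.4 and 6.998 CPM (-0.70 ± 0.58). Cenpf, a kinetochore protein, had 19.8 and 9.07 CPM against 9.23 and 8.86 CPM (-0.68 ± 0.41), so that 3 libraries were close and IgG replicate 1 was about 2.18 times IgG replicate 2. Kif23 had the widest ratio between the IgG libraries in this group, 2.76. Cenpe, a kinetochore motor, had the narrowest, 1.39, with 18.1 and 13.04 CPM against 13.6 and 13.7 CPM.

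Kif11, the motor that separates spindle poles, had 17.7 and 9.09 CPM against 10.98 and 12.7 CPM. Nusap1, a microtubule binding protein, had 10.2 and 5.44 CPM against 7.80 and 6.07 CPM, for a log2 fold change of -0.18 ± 0.38. In both the anti-PD-L1 libraries lay between the IgG libraries. The same held for Kif20a, Tpx2 and Prc1, with ratios between the IgG libraries of 2.05, 1.97 and 1.93. Kif20a and Prc1 overlap exons of Cdc23 and Rccd1 on the opposite strand.

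**Figure D3:**
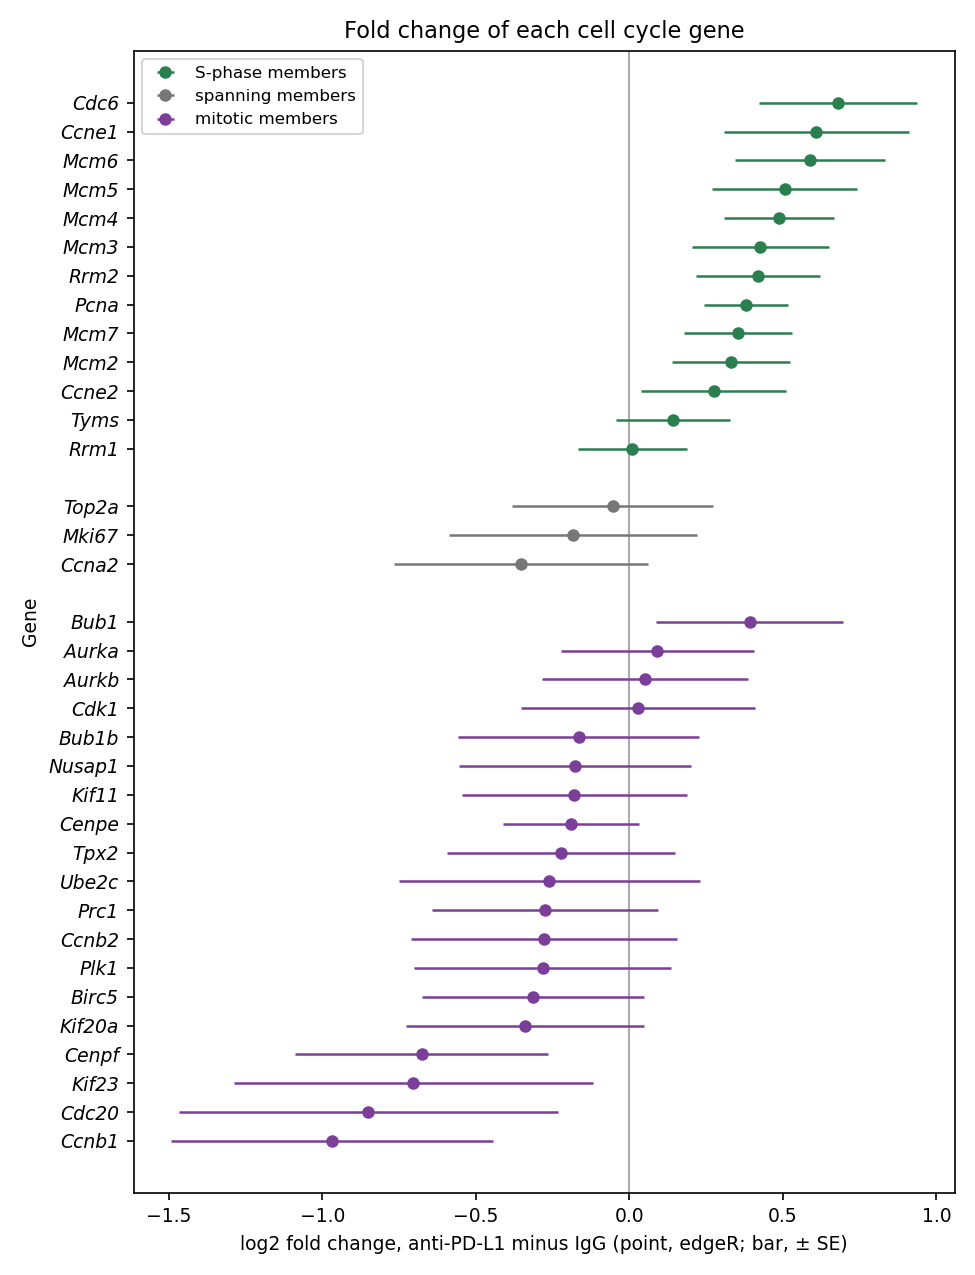
Points are log2 fold changes of anti-PD-L1 minus IgG from edgeR and bars are ± SE, with 1 gene per row in S-phase (green), spanning (grey) and mitotic (purple) classes. All 13 S-phase points lie above 0 and 15 of 19 mitotic points lie below it, with a median SE of 0.20 in the former and 0.38 in the latter.

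Levels were also put on a scale per kilobase of exon, with the exons of every annotated isoform of a gene joined. This length can exceed that of the RNA made, which understates a gene, so the order of genes is approximate. Pcna was the highest member on it with a mean of 25.4 CPM per kb, and Cdc20 followed with 13.4. Cdc20 had 26.0 CPM per kb in IgG replicate 1 against 22.1 for Pcna, and lay below Pcna in the other 3 libraries. Next came Ccnb2 at 6.96 and Mcm6 at 6.91, whose libraries overlapped widely, and then the other MCM subunits, from 4.61 for Mcm5 to 6.25 for Mcm4. Mki67 had 4.01 and Cdk1 1.74. The lowest were Cenpf at 0.761, Cdc6 at 0.709 and Ccne2 at 0.591, whose ranges over the libraries overlapped.

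Other genes of the cycle, none of them members, were taken from lists chosen by role, also with earlier results of these data known. Of 42 other S-phase genes 41 were tested and 38 had a log2 fold change above 0, with a median of 0.19. The groups did not overlap in 15 of 41 (36.6%), all higher under anti-PD-L1, and 0 were lower, beside 16.5% and 13.1% of all genes. Fen1, the flap endonuclease, had 10.5 and 10.2 CPM under IgG and 13.7 and 15.9 CPM under anti-PD-L1 (0.51 ± 0.18, edgeR adjusted p = 0.718). Lig1, the ligase that seals Okazaki fragments, had 14.1 and 12.6 CPM against 17.6 and 19.6 CPM (0.47 ± 0.17). These had the smallest p of the list, and neither passed. Prim1 and Pold2, of the primase and polymerase delta, had log2 fold changes of -0.06 ± 0.24 and -0.04 ± 0.17.

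Of 60 other mitotic genes, 44 had a log2 fold change below 0, with a median of -0.11. Of these 60, 48 were highest in IgG replicate 1, against 20.4% of all genes, while 2 (3.33%) lay higher and 4 (6.67%) lower in each anti-PD-L1 library than in either IgG library, beside 16.5% and 13.1% of all genes. Fbxo5, the inhibitor of the anaphase-promoting complex known as EMI1, had 2.81 and 2.77 CPM against 3.81 and 4.58 CPM (0.59 ± 0.23), and Cks1b a log2 fold change of 0.37 ± 0.23. Both were the ones with anti-PD-L1 above IgG. Anln, the cleavage furrow protein anillin, had 40.9 and 16.9 CPM against 20.3 and 9.68 CPM (-0.95 ± 0.58), with IgG replicate 1 far above the rest, and Depdc1a had -0.51 ± 0.30.

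edgeR and DESeq2 called 0 genes of either list, and also 0 of the 3 lists that follow. Among 18 transcription factors of the cycle, the median was 0.07. E2f2, an activating E2F, had 6.98 and 8.82 CPM against 12.8 and 10.3 CPM (0.55 ± 0.23), and Mybl2, which encodes B-MYB, 0.52 ± 0.27. Mycn and Tfdp2 had the smallest p on the lower side, with log2 fold changes of -0.98 ± 0.48 and -0.44 ± 0.48. The 7 G1 cyclins and kinases had a median of 0.07. Ccnd1, cyclin D1, had 73.5 and 59.9 CPM against 95.5 and 86.9 CPM (0.45 ± 0.18), and Ccnd3 0.19 ± 0.23. The 17 CDK inhibitors, pocket proteins and antiproliferative genes had a median of 0.03. Cdkn1a, which encodes the inhibitor p21, had 126 and 97.4 CPM against 89.2 and 69.5 CPM (-0.50 ± 0.23). Cdkn2a had 1.68 and 1.59 CPM against 3.10 and 2.46 CPM (0.77 ± 0.26, adjusted p = 0.702 by edgeR), Btg1 0.53 ± 0.20, and Klf4, a factor of differentiating epithelium, -0.82 ± 0.56.

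**Figure D4:**
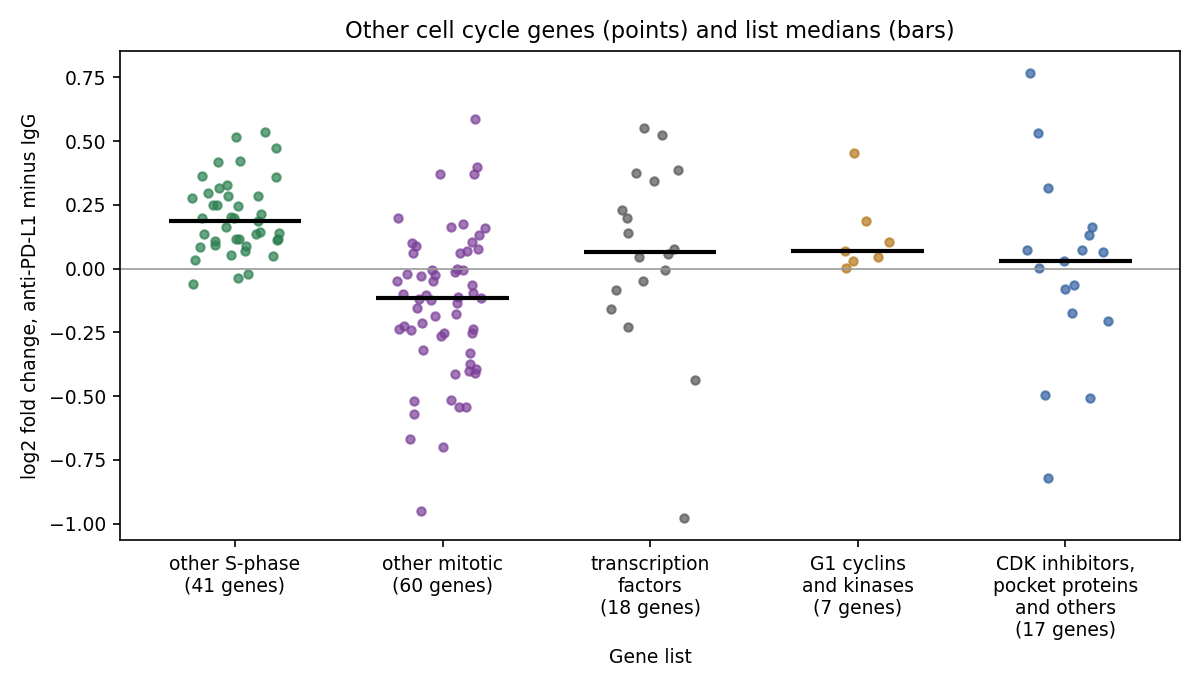
Points are log2 fold changes of anti-PD-L1 minus IgG for the genes of 5 lists that hold no member, black bars are list medians and the grey line is the median of all genes. The S-phase list has its median at 0.19 and the mitotic list at -0.11.

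Sums of marker genes of cell types are set beside the S-phase and mitotic sums here, and no correlation was computed. T cell markers (13 of 13 genes tested) summed to 29.8 and 62.2 CPM under IgG and 175 and 179 CPM under anti-PD-L1, with 13 of 13 genes higher in each anti-PD-L1 library. Macrophage markers (10 of 10) summed to 194 and 251 CPM against 839 and 791 CPM, with 8 of 10 genes higher in each. Like the S-phase sum, both were higher in the anti-PD-L1 libraries without overlap. Markers of cytotoxic lymphocytes (10 of 10) did the same, with 5.47 and 9.18 CPM against 46.0 and 52.1 CPM. B cell markers (8 of 8) overlapped between groups, with 41.5 and 123 CPM against 149 and 76.9 CPM. Of 10 genes of thymocytes and thymic epithelium, 6 were listed (Rag1, Rag2, Ptcra and Psmb11 were not among the symbols). These 6 summed to 17.5 and 17.6 CPM under IgG and 22.6 and 29.3 CPM under anti-PD-L1. The sum was again without overlap and highest in anti-PD-L1 replicate 2, but the genes were divided. Ccr9, Themis and Dntt, 3 of 6, were higher in each anti-PD-L1 library, while Cd1d1, Foxn1 and Aire overlapped. Foxn1 and Aire had log2 fold changes of -0.10 and -0.08. Cd1d1 alone had 7.27 and 8.18 CPM against 6.68 and 14.0 CPM. Dendritic cell markers (8 of 8) summed to 13.9 and 24.1 CPM against 54.4 and 60.1 CPM, with 6 of 8 genes higher in each anti-PD-L1 library. Plasma cell markers (7 of 8) summed to 467 and 564 CPM against 1679 and 845 CPM, with 4 of 7 genes higher in each. Jchain alone had 16.4 and 164 CPM against 1142 and 443 CPM, while Sdc1, Derl3 and Prdm1 overlapped. Neither the dendritic nor the plasma cell sum overlapped between groups, but the separation of the plasma cell sum rested on Jchain. Markers of germinal centre B cells (7 of 7) summed to 62.6 and 67.7 CPM against 86.0 and 66.5 CPM. Their sums overlapped, with 4 of 7 genes higher in each anti-PD-L1 library.

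Squamous epithelium markers (9 of 9) summed to 12973 and 3432 CPM under IgG and 5848 and 109 CPM under anti-PD-L1. Like the mitotic sum they were highest in IgG replicate 1 and next in anti-PD-L1 replicate 1, but they were lowest in anti-PD-L1 replicate 2 rather than in IgG replicate 2. Ccnb1, Cdc20, Kif23 and Cenpf, 4 of 19 mitotic genes, were lowest in anti-PD-L1 replicate 2, beside 5236 of all 16217 genes tested. All 9 squamous markers were lowest in that library, and so were all 6 muscle markers. The other 15 mitotic genes were lowest in IgG replicate 2, beside 2810 of all genes tested. These 4 genes also had the lowest log2 fold changes, which a lowest value in an anti-PD-L1 library by itself makes more likely. Cenpf was lowest by little, with 8.86 CPM against 9.07 CPM in IgG replicate 2. Krt5, the keratin of basal squamous cells, had 1571 and 686 CPM against 858 and 24.0 CPM. C cell markers (6 of 6) summed to 1952 and 1334 CPM against 1776 and 1343 CPM, the same order of libraries as the mitotic sum. Parathyroid markers (3 of 3) summed to 3515 and 1202 CPM against 3645 and 2671 CPM, lowest in IgG replicate 2 for all 3 genes. Markers of airway and mucosal glands (11 of 11) had another order, 4882 and 22770 CPM against 37455 and 11277 CPM. Muscle markers (6 of 6) summed to between 14325 and 40376 CPM. The part of any of these cell types in the differences between libraries was not tested.

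**Figure D5:**
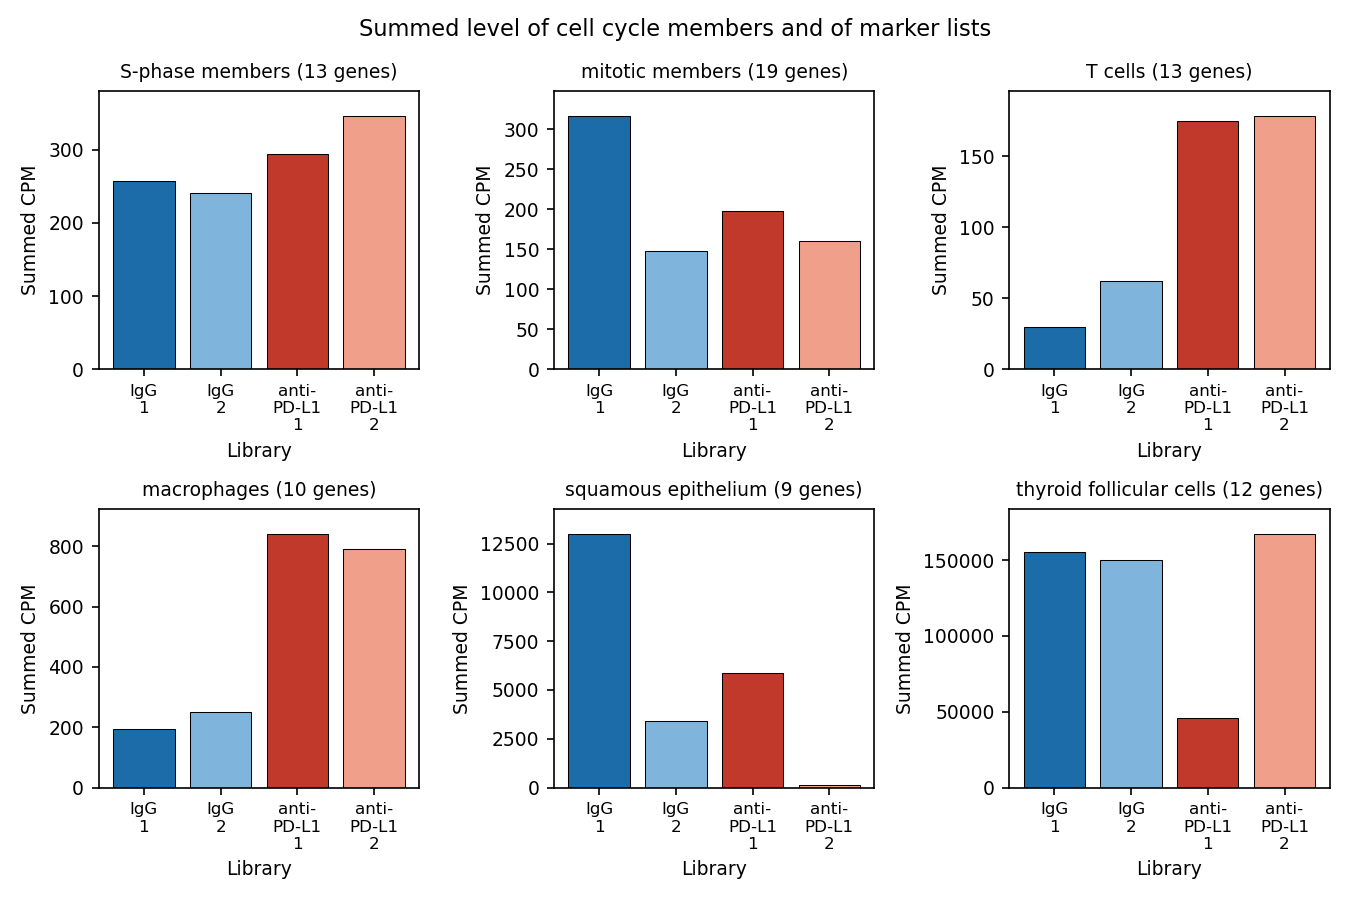
Bars are the summed CPM of each list in the 4 libraries, with each vertical axis starting at 0. The S-phase, T cell and macrophage sums are higher in both anti-PD-L1 libraries, and the mitotic and squamous sums are highest in IgG replicate 1.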

How the data were processed

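The authors deposited expected counts per gene symbol, not normalized, for 4 thyroid libraries of paired-end reads. BWA and mm10 are named in the submitters' processing notes, with no role or version. The counting program, annotation and strand setting were not given in the sources used here. Deposited counts were whole or ended in 0.5 (3328 genes, 20.5%; 8 members), 13 blank cells were read as 0, and every listed gene reached 100 counts in some library, so low genes were absent. Counts were rounded and tested in edgeR 4.0.16 (R 4.3.3) with filterByExpr, TMM, robust dispersion and a two-sided quasi-likelihood F test, with Benjamini-Hochberg adjustment over 16217 genes. SE was taken as |log2 fold change| over √F. Titles name separate mice by number only, so p-values measure the spread between these libraries, which for libraries of 1 group was far above sampling noise (chi-square over its degrees of freedom was 321 between IgG libraries and 1056 between anti-PD-L1 libraries). An exact permutation test of 2 against 2 cannot go below p = 0.333. At this depth 3 counts are 0.0377 to 0.0397 CPM, for counting error only. Alternatives were scaling by RLE, upper quartile or library size, a stricter filter or none, DESeq2 1.42.0, limma 3.58.1 voom, a replicate block, each library left out, an adjusted p under 0.10, and spanning genes counted as mitotic. Centred values use log2 CPM with a prior count of 2. Exon lengths (the union of all annotated exons of a gene) and positions came from GENCODE M21 (GRCm38, also called mm10). Members and lists were chosen with earlier results of these data known. Named were all members and, of each list of other cycle genes, the 2 of smallest p per direction. Values in every library were to be given for the 12 members of smallest p and the highest and lowest fold change of each role, and those of most other members were added. Sgol1 and C330027C09Rik stood for Sgo1 and Cip2a. The same 2-against-2 comparison was tested on simulated data in which 200 of 16217 genes had been changed. Every simulated gene was drawn with the same dispersion, the median of the fit (24.4% as a coefficient of variation). There edgeR recovered 97 of 100 at a log2 fold of 2 and 100 of 100 at 3, with 9 false calls. Dispersion differs between the real genes, so these recoveries need not hold for the deposited counts. The 35 members had log2 fold changes between -0.97 and 0.68, and recovery at such sizes was not tested. In the deposited counts edgeR called 0 genes, and Nkg7 had a log2 fold change of 3.75 with an edgeR adjusted p of 0.253.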

Additional observations from a re-analysis of the deposited data

How the results depend on the processing

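With 2 libraries per group, mitotic values depended on which IgG library was left out. Without IgG replicate 1, 29 members had anti-PD-L1 above IgG (all 13 S-phase, 3 spanning and 13 mitotic) and 1, Cenpf, below. Without IgG replicate 2, 12 were above and 21 below. Leaving out each library in turn, the count above ran from 12 to 29 and the count below from 1 to 21, while over all genes 24.8% to 39.2% lay above and 26.6% to 38.8% below, more than with all libraries. The median log2 fold change ran from -0.41 to 0.36 for all members (-0.054 with all libraries), from 0.25 (without anti-PD-L1 replicate 2) to 0.52 for S-phase members and from -0.67 (without IgG replicate 2) to 0.33 (without IgG replicate 1) for mitotic members. Mitotic minus S-phase ran from -1.04 to -0.10. Of 35 members, 20 changed sign when some library was left out, 16 of them without IgG replicate 1, and 4 named genes of the other lists did so: -0.13 to 0.15 for Rrm1, -0.64 to 0.47 for Mki67, -0.43 to 0.43 for Top2a, -0.81 to 0.31 for Ccna2, -0.36 to 0.53 for Cdk1, -0.74 to 0.39 for Ccnb2, -0.74 to 0.37 for Plk1, -0.25 to 0.35 for Aurka, -0.29 to 0.47 for Aurkb, -0.67 to 0.15 for Birc5, -0.60 to 0.44 for Bub1b, -1.44 to 0.14 for Cdc20. The others ran -0.76 to 0.48 for Ube2c, -0.41 to 0.047 for Cenpe, -0.58 to 0.36 for Kif11, -0.77 to 0.25 for Kif20a, -1.26 to 0.19 for Kif23, -0.63 to 0.33 for Tpx2, -0.56 to 0.33 for Nusap1, -0.67 to 0.26 for Prc1, -0.35 to 0.17 for Prim1, -0.14 to 0.043 for Pold2, -1.28 to 0.088 for Tfdp2, -0.083 to 0.40 for Ccnd3. Sign also turned for values near 0: Rrm1 was -0.0019 under RLE, -0.0014 under upper-quartile scaling and -0.0019 in DESeq2, and Top2a was 0.0076 in voom and 0.0085 with the replicate block. The shared replicate number does not pair libraries by the labels. Deviations of libraries with the same number had r = 0.0998 over all genes and 0.616 over the 35 members, and the fit with that block called 0 genes, with a mitotic minus S-phase value of -0.59. Under upper-quartile scaling 1 member, Cenpf, lay below in both anti-PD-L1 libraries. DESeq2 called 475 genes higher and 53 lower, and an adjusted p under 0.10 in edgeR 15 higher, with no member among any of them. The scalings moved the median of all genes by at most 0.020, and 11 to 12 S-phase members lay above under each. No further setting changed a call of a member.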
